A study of Mus musculus with 12 samples.

Results

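Calcium buffers and calcium sensors are small proteins that hold calcium ions in paired helix-loop-helix folds called EF-hands. Calbindin, calretinin and parvalbumin, encoded by Calb1, Calb2 and Pvalb, are mobile buffers that blunt and shape calcium signals, and each is widely used to mark classes of spinal neurons. The NECAB proteins, encoded by Necab1, Necab2 and Necab3, carry EF-hands at their amino terminus and bind other neuronal proteins. Hippocalcin (Hpca), its relatives Hpcal1 and Hpcal4, and visinin-like protein (Vsnl1) belong to the neuronal calcium sensors, which carry a fatty acid and move to membranes when calcium rises. Spinal motor neurons are known for a low capacity to buffer calcium. The genes were chosen by symbol: a row of the array tables was used where the platform annotation gave exactly 1 symbol and that symbol was one of these 10. They were 10 of 20261 genes, and had 11 of 24343 named transcript clusters in the gene-level table and 97 of 319246 named probesets in the exon-level table.

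Gene expression was compared between spinal motor neurons (SMNs) and the posterior horn, with 3 Affymetrix Mouse Exon 1.0 ST arrays in each group. The SMN samples, labelled anterior horn cells, were large cells cut by laser from the anterior horn of stained frozen sections of the cervical cord of untreated 6-week-old male C57Bl/6 mice (C57BL/6J in the methods). The posterior horn samples, labelled posterior column and with raw data named for sensory neurons, came from mice of the same strain and age and were pieces of dorsal horn tissue, which hold neurons, glia and vessels together. Each group was collected from 3 mice, the RNA was amplified linearly, and neither the labels nor the methods say whether each array holds a single mouse, so p-values measure only the spread between these samples, which may be technical.

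The gene-level values are linear intensities, and the exon-level values, from the same 6 arrays, are on a log2 scale. Gene-level medians over all rows lay between 33.1 and 33.8 in the SMN arrays and between 32.9 and 35.2 in the posterior horn arrays. Of 6 motor neuron markers 5 were higher in SMNs, and the summed intensity of the 6 was 16897 to 17799 in the SMN arrays and 375 to 482 in the posterior horn arrays. Chat, which makes acetylcholine, was 132-fold higher (limma adjusted p = 3.9e-05). The exception was Mnx1, a transcription factor of motor neuron identity, which went against the other 5 with 135, 172 and 177 in the SMN arrays, against 213, 237 and 237 in the posterior horn arrays. It was not called (log2 fold change -0.51, limma adjusted p = 0.0709). The paper, from its array data, ranked Mnx1 above Rspo2 in specificity for SMNs, which places Mnx1 as higher there. Rspo2 is not given here, so only the direction of Mnx1 can be set beside that ranking, and it differs. The reason was not tested. Of 11 dorsal horn neuron markers 7 were lower and none was higher, with sums of 6238 to 7063 in SMNs and 21597 to 22793 in the posterior horn. Slc6a5 and Slc32a1, the transporters of glycine and of GABA and glycine, were singled out after their values were seen. Slc6a5 lay between 2120 and 2470 in SMNs and between 2230 and 2838 in the posterior horn (limma adjusted p = 0.549), and Slc32a1 between 1902 and 2060 in SMNs and between 2671 and 2803 in the posterior horn (limma adjusted p = 0.0518). They do not stand for the list: Gad1, Gad2, Pax2 and Lbx1 were among the 7 called lower, by 21.1-fold, 25.9-fold, 4.05-fold and 132-fold. Gad1 varied widely between the SMN arrays, at 352, 27.7 and 314. Of the dimmer clusters named Gad2, 1 was called lower (45.5-fold, limma adjusted p = 0.00794) and 1 was lower without a call (7.91-fold, limma adjusted p = 0.0667). Glial markers were present in both groups and lower in SMNs. The 7 astrocyte markers, all lower, summed to 4319 to 4673 in SMNs and 13546 to 14489 in the posterior horn. The 7 oligodendrocyte markers, all lower, summed to 11011 to 11936 in SMNs and 22065 to 23263 in the posterior horn. Of 7 microglia markers 6 were lower, with sums of 1726 to 1804 in SMNs and 4375 to 4790 in the posterior horn. None of 7 ventral interneuron markers was called, with sums of 1236 to 1452 in SMNs and 1393 to 1679 in the posterior horn. Of 5 primary sensory neuron markers 2 were higher and 1 was lower, with sums of 367 to 457 in SMNs and 854 to 1172 in the posterior horn. The lower 1 was Pou4f1, with means of 21.0 in SMNs and 692 in the posterior horn, while Prdm12 and Runx3 were each 1.67-fold higher. These sums therefore rest mainly on Pou4f1 and do not stand for the list. The part of any of these cells in the differences given here was not tested.

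Of the 10 genes, 2 were higher in SMNs (Calb2 and Necab3), 6 were lower (Necab1, Hpca, Necab2, Calb1, Hpcal4 and Vsnl1) and 2 were not called (Pvalb and Hpcal1). A gene was called at an adjusted p under 0.05 from limma on log2(intensity + 1), adjusted over all 24343 named transcript clusters. By that rule 13.8% of all clusters were higher and 12.6% were lower. The median log2 fold change of the 10 genes, SMN minus posterior horn, was -1.28, and that of all clusters was 0.02. In 9 of the 10 genes the SMN arrays lay wholly above (3 genes) or wholly below (6 genes) the posterior horn arrays, as was the case for 24.1% and 21.4% of all clusters. In samples of this kind, fewer cells of a type and less RNA per cell cannot be told apart. The plot of intensities by array shows these values.

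**Figure D1:**
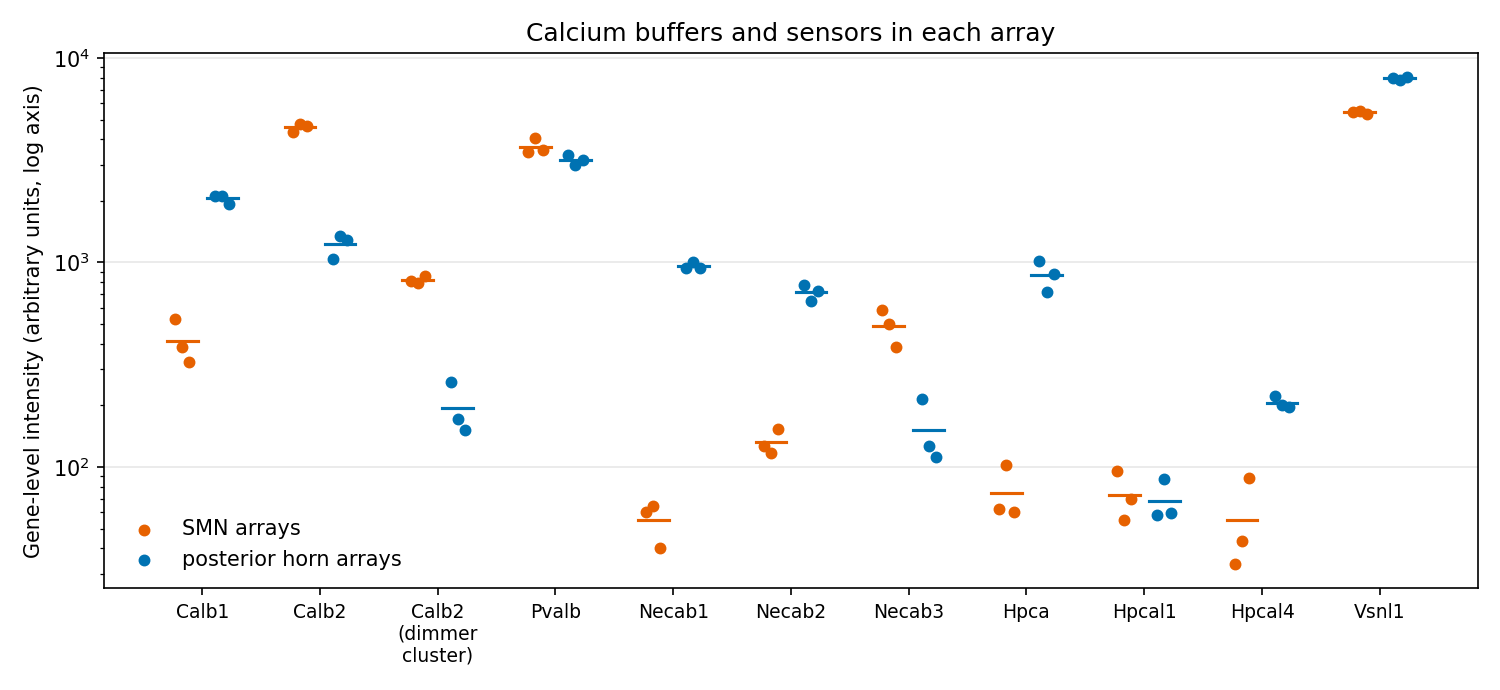
Gene-level intensity (arbitrary units, log axis) of each gene in every array. Points are single arrays, 3 per group, with SMN arrays in orange on the left of each pair and posterior horn arrays in blue on the right, and horizontal bars are group means. The groups overlap only for Hpcal1, and Calb2 and Necab3 lie higher in SMNs while 6 genes lie lower.

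Among the buffers, calbindin and calretinin differed in opposite directions, and parvalbumin was not called. Calb1 had intensities of 527, 386 and 325 in the SMN arrays, against 2110, 2117 and 1941 in the posterior horn arrays. Every SMN array was thus far below every posterior horn array, and the SMN arrays varied more on a relative scale. Calb1 averaged 413 ± 104 in SMNs and 2056 ± 99.5 in the posterior horn (SD, n = 3 each), and was 5.07-fold lower (log2 fold change -2.34, SE 0.21, limma adjusted p = 0.00164). Calb2 had intensities of 4365, 4750 and 4667 in the SMN arrays, against 1044, 1355 and 1284 in the posterior horn arrays. The groups did not come near each other, and Calb2 was 3.76-fold higher in SMNs (means 4594 ± 203 and 1228 ± 163, SD, n = 3 each; log2 fold change 1.91, SE 0.16, limma adjusted p = 0.00139). A further, dimmer transcript cluster carries the symbol Calb2 in the platform annotation. Its position is not given there, so whether it lies in the gene is not known here. It showed 811, 792 and 863 in the SMN arrays and 259, 172 and 152 in the posterior horn arrays, and was 4.32-fold higher (limma adjusted p = 0.00275). Its direction was that of the brighter cluster, but its tie to Calb2 rests on the annotation alone, so it is no further support.

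Pvalb had intensities of 3472, 4056 and 3542 in the SMN arrays, against 3369, 2987 and 3183 in the posterior horn arrays. The lowest SMN array was slightly above the highest posterior horn array, and the group means were 3690 ± 319 and 3180 ± 191 (SD, n = 3 each). The log2 fold change was 0.21, with a 95% interval of -0.15 to 0.57 and an adjusted p of 0.335 from limma. Within each array, the log2 difference between Calb1 and Calb2 was set against that in the other group. The log2 fold changes of Calb1 and Calb2 differed by -4.25, a 19.1-fold shift of one relative to the other, with no overlap between the groups (exact permutation p = 0.1, the smallest that 3 against 3 arrays allow, and 0.111 after adjustment over the 10 pairs compared within the families). As Calb1 lay wholly lower and Calb2 wholly higher in SMNs, this separation follows from the single genes and is no further test.

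The NECAB genes split within the family: Necab1 and Necab2 were lower in SMNs and Necab3 was higher. Necab1 had the largest difference of the 10 genes. Its intensities were 60.4, 64.3 and 40.1 in the SMN arrays, against 945, 1004 and 936 in the posterior horn arrays. No SMN array came within 10-fold of a posterior horn array, and Necab1 was 17.6-fold lower (means 54.9 ± 13 and 962 ± 36.8, SD, n = 3 each; log2 fold change -4.13, SE 0.22, limma adjusted p = 3.9e-04). Necab2, whose product binds receptors for glutamate and adenosine, showed 126, 117 and 154 in the SMN arrays, against 778, 646 and 724 in the posterior horn arrays. It was 5.40-fold lower, with the groups well apart (means 132 ± 19.1 and 716 ± 66.7, SD, n = 3 each; log2 fold change -2.43, SE 0.17, limma adjusted p = 8.8e-04). Necab3 encodes a protein found to bind adaptors of the amyloid precursor protein. Its intensities were 585, 501 and 385 in the SMN arrays, against 214, 127 and 112 in the posterior horn arrays. All SMN arrays were higher, with a wide spread in both groups, and Necab3 was 3.32-fold higher (means 490 ± 100 and 151 ± 54.8, SD, n = 3 each; log2 fold change 1.73, SE 0.30, limma adjusted p = 0.0104).

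The log2 fold change of Necab1 was below that of Necab3 (difference -5.86, a 58.2-fold shift), that of Necab2 was likewise below Necab3 (difference -4.16, 17.9-fold), and that of Necab1 was below Necab2 (difference -1.70, 3.25-fold). In each of these 3 pairs the within-array differences did not overlap between the groups, with an exact permutation p of 0.1 (0.111 adjusted). For the pairs with Necab3 this follows from the opposite directions of the single genes, whose arrays did not overlap, and is no further test. For Necab1 and Necab2 it follows from the gap of Necab1, which was wider on the log2 scale than the whole range of Necab2. The promoter windows of Necab2 and Necab3 are printed because these 2 genes of 1 family changed in opposite directions. Each is the 250 bases before the start of the gene in the RefSeq promoter table of GRCm38.p6, on the strand of the gene, with matches to the GC box (GGGCGG), the CCAAT box (CCAAT) and the TATA box (TATAAA) on either strand in capitals. Necab2 lies at chr8:119446469-119446718 on the plus strand, and Necab3 at chr2:154558855-154559104 on the minus strand.
Necab2: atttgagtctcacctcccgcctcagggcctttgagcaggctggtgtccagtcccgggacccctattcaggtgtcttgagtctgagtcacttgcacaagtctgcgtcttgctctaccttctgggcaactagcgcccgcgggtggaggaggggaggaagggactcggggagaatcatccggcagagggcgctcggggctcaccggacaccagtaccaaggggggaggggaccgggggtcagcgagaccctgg
Necab3: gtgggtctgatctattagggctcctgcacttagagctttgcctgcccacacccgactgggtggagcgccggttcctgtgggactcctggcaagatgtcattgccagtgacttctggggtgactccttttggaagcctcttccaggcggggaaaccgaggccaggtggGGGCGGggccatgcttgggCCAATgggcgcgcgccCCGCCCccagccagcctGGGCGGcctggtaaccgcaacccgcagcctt
The Necab3 window held 3 GC boxes and 1 CCAAT box, and the Necab2 window held no match to the 3 motifs. Over the 32851 windows of the table, 32.7% held a GC box, 33.8% a CCAAT box and 12.4% a TATA box, so such matches are common and describe only the sequence. Of the 10 genes, 7 had an entry in the table, with 12 windows in all, and Calb1, Calb2 and Necab1 are named only.

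In the hippocalcin family, Hpca and Hpcal4 were lower in SMNs, Vsnl1 was slightly lower, and Hpcal1 was not called. Hpca, the sensor first described in the hippocampus, had intensities of 62.5, 102 and 60.4 in the SMN arrays, against 1022, 717 and 879 in the posterior horn arrays. The highest SMN array was far below the lowest posterior horn array, and Hpca was 11.7-fold lower (means 74.9 ± 23.3 and 872 ± 153, SD, n = 3 each; log2 fold change -3.55, SE 0.26, limma adjusted p = 9.6e-04). Hpcal4 showed 33.5, 43.2 and 88.3 in the SMN arrays, against 222, 200 and 196 in the posterior horn arrays. The third SMN array was the highest of its group but still below all posterior horn arrays, and Hpcal4 was 4.01-fold lower (means 55.0 ± 29.3 and 206 ± 13.9, SD, n = 3 each; log2 fold change -2.01, SE 0.36, limma adjusted p = 0.0115). Vsnl1, a sensor abundant in many neurons, showed 5470, 5526 and 5297 in the SMN arrays, against 7983, 7843 and 8045 in the posterior horn arrays. Its arrays agreed closely within each group (means 5431 ± 119 and 7957 ± 103, SD, n = 3 each), and it was 1.47-fold lower (log2 fold change -0.55, SE 0.13, limma adjusted p = 0.0285). Leaving out any single array ended this call, with adjusted p between 0.0506 and 0.0971, while the log2 fold change stayed between -0.56 and -0.53.

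Hpcal1 had intensities of 95.7, 54.9 and 69.4 in the SMN arrays, against 58.0, 87.6 and 59.7 in the posterior horn arrays. The groups overlapped, the means were 73.3 ± 20.7 and 68.4 ± 16.6 (SD, n = 3 each), and the log2 fold change was 0.09 with a 95% interval of -0.57 to 0.75 (limma adjusted p = 0.839). Its sign turned when the first SMN array (-0.12) or the first posterior horn array (-0.02) was left out. No detection call was used here, so whether the low intensities of Hpcal1, of Necab1, Hpca and Hpcal4 in SMNs stood above background is not known. Relative to Vsnl1, Hpca shifted by -3.00 and Hpcal4 by -1.45 on the log2 scale, and relative to Hpcal1, Hpca shifted by -3.64. Hpca was also lower relative to Hpcal4 (-1.55), and Hpcal1 was higher relative to Hpcal4 (2.09). These 5 differences had no overlap between the groups (exact permutation p = 0.1, 0.111 adjusted), whereas Hpcal1 and Vsnl1 (0.64) overlapped (exact permutation p = 0.2). On the log2 scale the gap of Hpca between the groups was wider than the whole range of Hpcal1, Hpcal4 or Vsnl1. The gap of Hpcal4 was wider than the range of Hpcal1 or Vsnl1. The 5 separations thus follow from the single genes and are no further test. With the median of exon-level values, Hpca and Hpcal4 (-0.82), Hpcal1 and Hpcal4 (0.86) and Hpcal4 and Vsnl1 (-0.43) no longer stood apart.

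The windows before the starts of Hpca, Hpcal4 and Vsnl1 are printed as the members of the family that were lower in SMNs, with the same motifs in capitals. They lie at chr4:129121748-129121997 (minus strand, the first listed of 3 windows), chr4:123183254-123183503 (plus strand) and chr12:11436579-11436828 (minus strand, the first listed of 2 windows) of GRCm38.p6.
Hpca: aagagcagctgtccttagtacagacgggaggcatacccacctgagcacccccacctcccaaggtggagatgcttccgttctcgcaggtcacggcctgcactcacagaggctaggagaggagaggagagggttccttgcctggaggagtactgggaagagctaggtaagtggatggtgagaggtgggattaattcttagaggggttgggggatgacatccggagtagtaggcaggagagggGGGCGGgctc
Hpcal4: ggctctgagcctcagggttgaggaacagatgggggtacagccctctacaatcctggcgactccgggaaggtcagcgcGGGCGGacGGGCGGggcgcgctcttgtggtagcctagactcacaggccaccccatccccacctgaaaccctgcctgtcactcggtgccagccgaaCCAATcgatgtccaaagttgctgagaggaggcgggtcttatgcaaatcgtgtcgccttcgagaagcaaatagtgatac
Vsnl1: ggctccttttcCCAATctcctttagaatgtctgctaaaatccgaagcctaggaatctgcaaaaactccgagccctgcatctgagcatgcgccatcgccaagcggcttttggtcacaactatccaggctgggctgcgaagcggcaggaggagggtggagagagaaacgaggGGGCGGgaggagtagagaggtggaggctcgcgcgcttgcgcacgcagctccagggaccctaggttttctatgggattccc
The Hpca window held 1 GC box, the Hpcal4 window 2 GC boxes and 1 CCAAT box, and the Vsnl1 window 1 of each. None of the 3 held a TATA box in these letters.

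The exon-level table summarizes the same arrays by probeset, so it is no independent replicate, but it shows whether the probesets of a gene agree. A probeset was called at an adjusted p under 0.05 over all 1195555 probesets, by which 0.570% of all probesets were higher in SMNs and 0.654% lower, or 1.44% and 1.48% of the named ones. Calb1 had 13 of 15 probesets lower and Necab1 had 15 of 18, while Calb2 had 7 of 10 higher. Necab2 had 6 of 9 lower, Necab3 had 4 of 15 higher, Hpca had 3 of 8 lower and Hpcal4 had 1 of 7 lower. None of the 8 probesets of Pvalb, the 6 of Vsnl1 or the single one of Hpcal1 was called. These counts depended on the arrays used. Without 1 array they ranged over 3 to 10 for Calb1, 8 to 12 for Necab1, 0 to 6 for Calb2, 0 to 3 for Necab2, 0 to 4 for Necab3 and 1 to 2 for Hpca, and leaving out any SMN array gave 0 for Calb2, Necab2 and Necab3, while Hpcal4 stayed at 1.

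**Figure D2:**
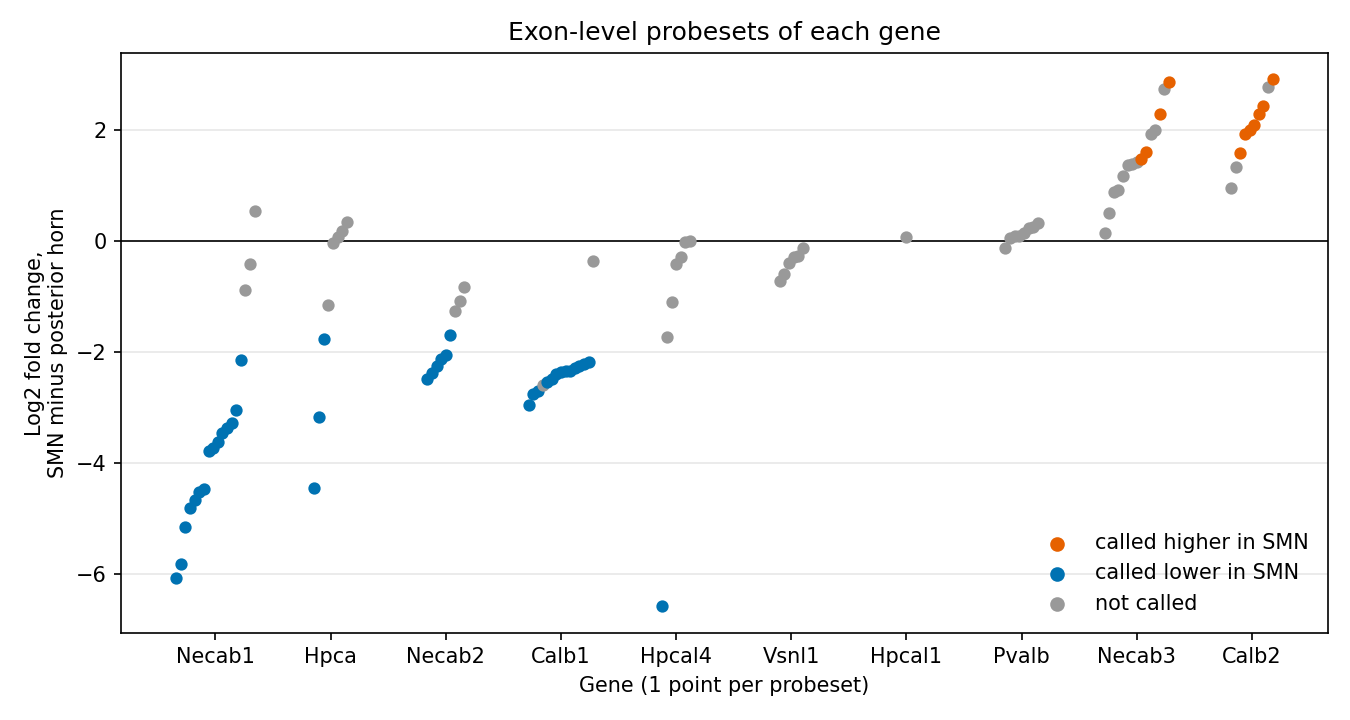
Log2 fold change (SMN minus posterior horn) of every exon-level probeset of each gene, 1 point per probeset, sorted within the gene. Blue points were called lower in SMNs, orange points higher, and grey points were not called. Calb1, Calb2, Necab2, Necab3 and Vsnl1 keep 1 sign over their probesets, whereas Hpcal4 rests mainly on 1 probeset at -6.59.

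In Calb1 all 15 probesets were lower, from -2.96 to -0.35, and all 10 of Calb2 were higher, from 0.95 to 2.92. For Necab2 all 9 were lower, from -2.49 to -0.82, and for Necab3 all 15 were higher, from 0.15 to 2.87. For Necab1 17 of 18 were lower, reaching -6.08, and 1 lay at 0.54 without being called. The probesets of Vsnl1 were all lower by a little, from -0.72 to -0.12, without being called, and those of Pvalb lay between -0.13 and 0.32.

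In Hpca and Hpcal4 the probesets of 1 gene behaved very unlike each other. In Hpca the probesets at -4.45, -3.17 and -1.77 were called. The first of them (probeset 5504414) had log2 values of 2.46, 3.78 and 3.58 in the SMN arrays, against 7.95, 8.28 and 6.96 in the posterior horn arrays. Another probeset of the gene (5110456), which was not called, read 8.64, 8.84 and 8.73 in the SMN arrays, against 8.63, 8.92 and 8.75 in the posterior horn arrays, a difference of -0.03. In Hpcal4 a single probeset (5493426) carried most of the difference. It read 3.92, 4.20 and 5.64 in the SMN arrays, against 11.11, 11.09 and 11.34 in the posterior horn arrays (difference -6.59, SE 0.45, limma adjusted p = 0.00328). The other 6 probesets of Hpcal4 lay between -1.73 and 0.00 and were not called.

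limma's diffSplice, which asks whether the probesets of a gene differ unequally, called 21.4% of 21412 genes. It called Necab1 (adjusted p = 1.3e-14), Hpcal4 (6.1e-13), Hpca (5.7e-10), Necab2 (0.00149), Calb1 (0.00436), Necab3 (0.00584) and Calb2 (0.0425), and not Vsnl1 (0.173) or Pvalb (0.819). Hpcal1, with 1 probeset, could not be tested. Necab1, Hpcal4, Hpca and Necab2 kept this call without any 1 array. Calb2 lost it without any of the 3 SMN arrays (adjusted p = 0.327, 0.216 and 0.400) or without the third posterior horn array (0.178). Calb1 lost it without the third SMN array (0.0606) or the first or second posterior horn array (0.0919 and 0.124). Necab3 lost it without SMN array 1 or 3 (0.0968 and 0.182) or posterior horn array 2 or 3 (0.0653 and 0.0618). Unequal isoforms and probesets that respond weakly cannot be told apart by this test.

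When each gene was summarized by the median of its probesets, 7 of the 8 called genes were called again in the same direction, all but Vsnl1 (log2 fold change -0.36, limma adjusted p = 0.104). The differences of Calb1 (-2.50), Calb2 (2.19) and Pvalb (0.20) moved little. Those of Necab1 (-3.39) and Necab3 (1.25) were smaller than at the gene level, and those of Necab2 (-1.58), Hpca (-1.61) and Hpcal4 (-0.79) were smaller by more than 1.5 times on the log2 scale.

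**Figure D3:**
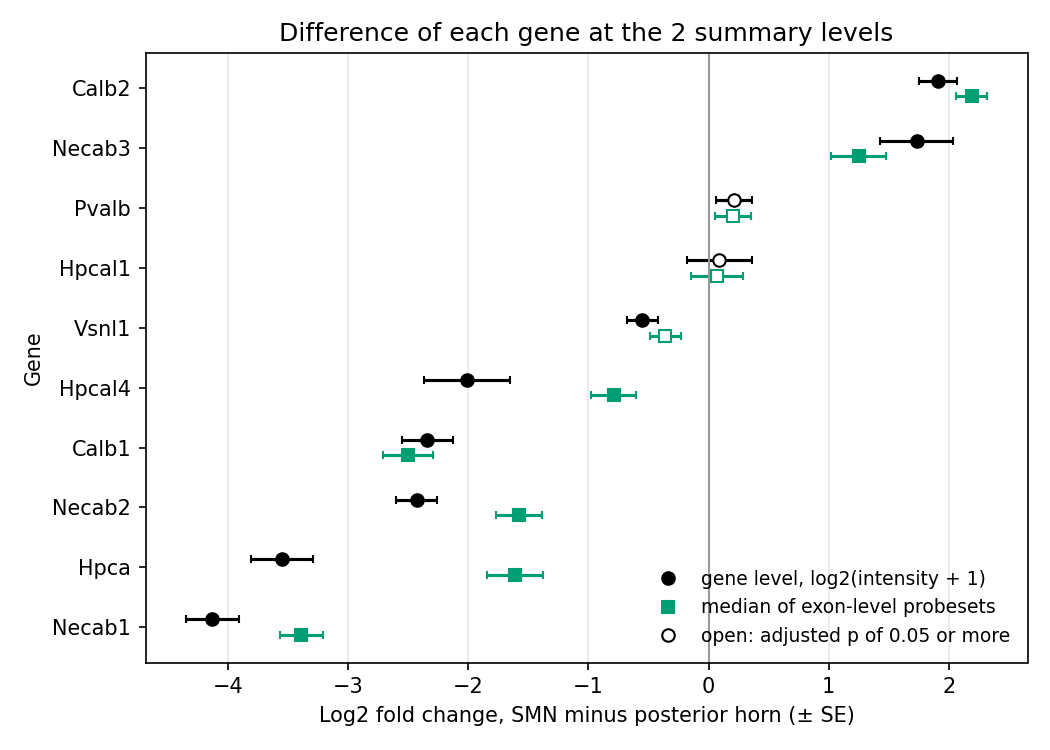
Log2 fold change (SMN minus posterior horn) of each gene at the gene level (black circles) and as the median of its exon-level probesets (green squares), with standard errors from limma and 3 arrays per group. Open symbols had an adjusted p of 0.05 or more, which holds for Pvalb and Hpcal1 at both levels and for Vsnl1 at the exon level.

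Other calcium-handling genes were counted to place these 10. Over 7 lists with 79 measured genes, 12 were higher in SMNs, 28 were lower and the median log2 fold change was -0.23. Of all clusters 13.8% were higher and 12.6% were lower, with a median of 0.02, and the counts of the single lists below are to be read beside these shares. The share of rises over the 7 lists was near that of all clusters, and the share of falls was above it. Without 1 SMN array the counts over the 7 lists were 5 to 7 higher and 18 lower.

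Of the 9 other neuronal calcium sensors, 3 were lower in SMNs, none was higher and the median log2 fold change was -0.28. Kcnip2, a partner of A-type potassium channels, had intensities of 17.9, 0.519 and 7.63 in the SMN arrays, against 275, 218 and 170 in the posterior horn arrays. Its SMN arrays lay near the bottom of the scale, so the fitted 34.6-fold difference depends on the value added before the log2 (limma adjusted p = 0.0106). Its call was lost in 1 of 17 alternatives. Kcnip3, of the same group, showed 119, 135 and 166 in the SMN arrays, against 456, 552 and 505 in the posterior horn arrays, 3.60-fold lower (limma adjusted p = 0.00216). Ncald, encoding neurocalcin, showed 408, 412 and 348 in the SMN arrays, against 1614, 1306 and 1235 in the posterior horn arrays, 3.54-fold lower (limma adjusted p = 0.00191). Ncs1, neuronal calcium sensor, showed 1124, 1177 and 1067 in the SMN arrays, against 1535, 1396 and 978 in the posterior horn arrays. Those values overlapped, and neither Ncs1 nor Kcnip1, Kcnip4, Rcvrn, Guca1a and Guca1b was called, with log2 fold changes between -0.47 and 0.37.

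Of 5 measured genes of the CaBP family, calmodulin-like regulators of calcium channels, 3 were higher, none was lower and the median was 0.82. Caln1 showed 1459, 1410 and 1435 in the SMN arrays, against 781, 500 and 561 in the posterior horn arrays, 2.38-fold higher (limma adjusted p = 0.00874). Cabp1 showed 1316, 1304 and 1492 in the SMN arrays, against 812, 675 and 852 in the posterior horn arrays, 1.76-fold higher (limma adjusted p = 0.0159). The call was lost in 1 of 18 alternatives for Caln1 and in 5 of 18 for Cabp1. A dimmer cluster named Cabp1 overlapped between the groups and was not called (log2 fold change 0.26, limma adjusted p = 0.473). Cabp2 was 1.80-fold higher (limma adjusted p = 0.0308), a call lost in 8 of 18 alternatives, and Cabp4 (0.26) and Cabp7 (-0.26) were not called. Of the calmodulin relatives and other small EF-hand proteins 2 of 14 were higher and 6 were lower, with a median of -0.04. S100a10, the partner of annexin A2, was 6.19-fold higher at 4409, 4081 and 4165 in the SMN arrays, against 952, 473 and 699 in the posterior horn arrays (limma adjusted p = 0.00238). S100b was 2.58-fold higher (limma adjusted p = 0.00245), whereas Efhd2 (3.01-fold) and S100a6 (2.92-fold) were lower, Efhd2 losing the call in 2 of 18 alternatives and S100a6 in 1 of 18.

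Among pumps and exchangers of the cell membrane, 3 of 11 were higher and 5 were lower (median -0.07). The sodium-calcium exchanger gene Slc8a2 showed 24.4, 17.6 and 13.4 in the SMN arrays, against 355, 208 and 411 in the posterior horn arrays, 16.5-fold lower (limma adjusted p = 0.00125). Slc24a4, a potassium-dependent exchanger, was 15.8-fold lower, and Atp2b2, a calcium pump, and Slc24a2 were 1.71-fold and 1.64-fold higher, each of these rises being lost in 5 of 18 alternatives. Genes of the calcium stores of the endoplasmic reticulum mostly did not pass, with 1 of 18 higher and 3 lower (median -0.05). The 1 that was higher was Itpr3, a receptor that releases stored calcium, at 638, 654 and 609 in the SMN arrays, against 44.8, 51.1 and 53.4 in the posterior horn arrays. Its groups were far apart, 12.5-fold (limma adjusted p = 2.3e-04), and its relative Itpr2 was 3.05-fold lower (limma adjusted p = 0.00271). Casq1, a store buffer best known from muscle, was 3.40-fold lower, a call lost in 9 of 18 alternatives.

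Of 7 genes of mitochondrial calcium uptake 3 were higher and 1 was lower (median 0.29). Mcu, the pore of the uniporter, showed 747, 665 and 651 in the SMN arrays, against 305, 334 and 328 in the posterior horn arrays, 2.12-fold higher (limma adjusted p = 0.00487). Its call was lost in 1 of 17 alternatives. Slc8b1, the mitochondrial sodium-calcium exchanger, was 2.45-fold higher and Mcur1 was 1.98-fold lower, both lost in 8 of 17 alternatives. Calmodulin targets had 10 of 15 genes lower and none higher (median -0.68). Camk2a, a kinase of excitatory synapses, showed 248, 310 and 232 in the SMN arrays, against 5003, 4907 and 5060 in the posterior horn arrays, 19.0-fold lower (limma adjusted p = 2.2e-04). Camkv, a kinase-like protein without known kinase activity, was 114-fold lower, at 35.2, 7.29 and 23.3 in the SMN arrays, against 2468, 2122 and 2069 in the posterior horn arrays (limma adjusted p = 0.00110). With the median of exon-level values per gene, the log2 fold change of Itpr3 was 1.34, and those of Slc8a2, Slc24a4, Itpr2, Kcnip2 and Camkv were -0.79, -1.24, -0.70, -2.11 and -3.33, all still called, while that of Efhd2 was -0.42 and was not called. The plot of the lists sets these genes beside the 10.

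**Figure D4:**
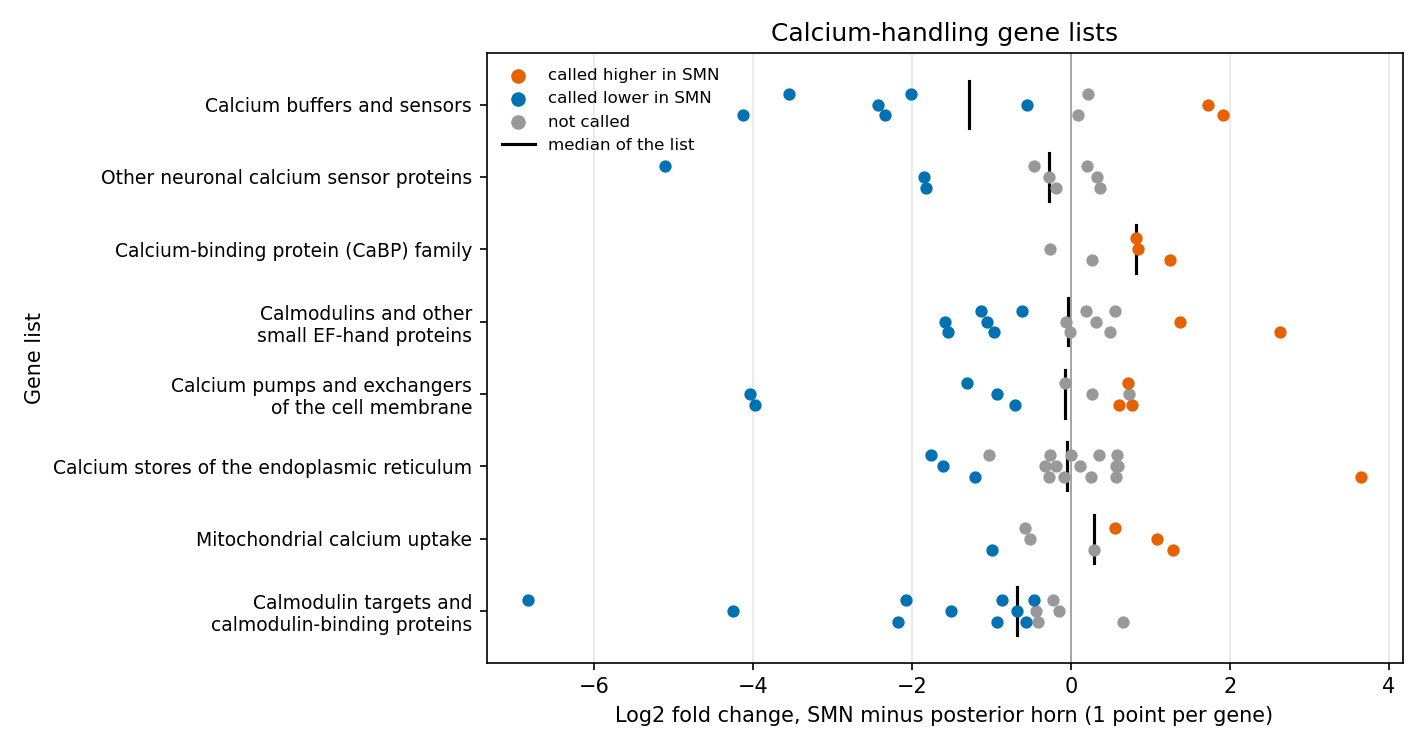
Log2 fold change (SMN minus posterior horn) of every measured gene in each list, 1 point per gene (orange called higher in SMNs, blue called lower, grey not called), with a black bar at the median of the list. The 10 calcium buffers and sensors have a median of -1.28, the calmodulin targets -0.68 and the CaBP family 0.82.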

How the data were processed

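RNA of 3 SMN and 3 posterior horn samples was hybridized to Mouse Exon 1.0 ST arrays. The authors deposited gene-level values as linear intensities and exon-level values on a log2 scale, and the tool in the submitters' processing notes is Affymetrix Expression Console 1.3.1.187. For background correction, probe summarization and build, the method is not given in the sources used here, so probesets are given with no coordinates. Array medians were alike, and no further normalization was applied. Names came from the platform annotation. Of 238609 gene-level rows 24343 had 1 symbol, 1797 several and 212469 were unnamed here; of 1195555 probesets 319246 had 1, 7654 several and 868655 were unnamed here. All 10 genes had an Entrez identifier in the RefSeq table. For a symbol with several clusters, the brightest is given.

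Intensities were converted to log2(intensity + 1), which understates the change of dim genes, and groups were compared by two-sided limma tests (version 3.58.1, run in R 4.3.3, with lmFit, then eBayes and Benjamini-Hochberg adjustment), probesets also with diffSplice, and pairs of genes by exact permutation. The fit was tested on simulated data. The number of arrays limits the precision. The genes and lists were chosen with earlier results of these data known. Named were the 10 genes, the neuronal calcium sensor and CaBP lists, and from each other list up to 2 rises and 2 falls, the largest among called genes with groups apart. Alternatives were median centring, quantile normalization, leaving out dim rows, 16 added or a floor of 16, a variance trend, the methods' t-test, all rows, 1 row per symbol, a replicate block, leaving out each array, and the exon-level median per gene. Leaving out each array in diffSplice was added after seeing the data.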

Additional observations from a re-analysis of the deposited data

How the results depend on the processing

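Over 18 alternatives, Calb1, Calb2, Necab1, Necab2 and Hpca kept direction and call, and Necab3 and Hpcal4 lost the call in 1, when all rows of the table were tested (adjusted p = 0.0958 and 0.0993 from limma). Vsnl1 lost it in 9: with all rows (0.248), with the replicate block (0.0845), with the exon-level median (0.104) and without each of the 6 arrays. Pvalb never passed (adjusted p = 0.0593 to 0.824), and Hpcal1 turned sign without the first array of either group (-0.12 and -0.02, in a range of -0.12 to 0.28). Genes of the other lists that were not called turned sign as well: Cabp7 without the third posterior horn array (0.14, in a range of -0.70 to 0.14 without 1 array), and with the exon-level median Guca1a (-0.22), Guca1b (0.43), Kcnip1 (0.04), Kcnip4 (-0.12) and Cabp4 (-0.41). S100a16, called lower, turned to 0.18 there without a call.

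Testing all rows gave 924 clusters higher and 1084 lower, with 1 of the 10 genes higher and 3 genes of the other lists higher and 9 lower; more rows were adjusted over. The exon-level median gave 2203 genes higher and 1545 lower, with 5 genes of the lists higher; the cause was not tested. Leaving out 1 array, which leaves fewer samples, gave 1493 to 2893 clusters higher and 1741 to 2592 lower, 5 to 12 genes of the lists higher and 18 to 25 lower, 971 to 3127 probesets higher and 1413 to 3419 lower, and 2846 to 4729 genes by diffSplice. Leaving out the dimmer 50% of probesets gave 14083 higher and 14575 lower, and testing only probesets with 1 symbol gave 11622 higher, with fewer probesets tested in both.

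Samples with the same replicate number did not deviate together (correlations of 0.03, -0.01 and 0.02). Whether equal numbers share a mouse is not stated. The correlations cannot settle it, because variation of the single samples could hide a pairing. With the replicate block there were 1867 clusters higher and 1931 lower, 6 genes of the lists higher and 18 lower, and 389 probesets higher and 460 lower, with 5 probesets of Necab1, 1 of Hpcal4 and none of the other 8 genes called. It ended the call of no other of the 10 genes than Vsnl1. No scaling alternative moved the median of all clusters above 0.08. The number of arrays, 3 per group, limits the precision.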
